A study of Rattus norvegicus with 34 samples.

Results

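The genes described here are 10 transcripts of the rat that encode plasma proteins made mainly by the liver: Alb, Apoa1, Ttr, Fga, Fgb, Fgg, Serpina1, Hrg, Ambp and Azgp1, measured in testis RNA. They were picked by name, with results of these data known, because their scores were high in P2500 replicates 2 to 4, and every probe set whose only platform gene symbol is one of these names was taken. This gave 14 of the 31042 probe sets tested and 10 of the 14217 genes with a single symbol. Because the values of P2500 chose the genes, those values are given as a description and P2500 entered no comparison between groups. Its replicates 1 and 5 are among the arrays of the correlations.

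The animals were male Wistar Han rats, and testis RNA of postnatal day 92 was hybridised to 1 Affymetrix rat genome array per animal. Each had been exposed through the feed, from gestation day 6 to postnatal day 92, to a triazole fungicide or to none. The groups were Control (0 ppm, 6 arrays), M500 and M2000 (myclobutanil at 500 ppm, 3 arrays, and 2000 ppm, 5 arrays), P500 and P2500 (propiconazole at 500 ppm, 4 arrays, and 2500 ppm, 5 arrays), and T500 and T1800 (triadimefon at 500 ppm, 4 arrays, and 1800 ppm, 4 arrays). Of 34 arrays in the series, 31 held values and the other 3 were not analysed here, and 28 remained when P2500 replicates 2 to 4 were set apart. No label names the litter of an animal, so the tests measure the spread between these animals. In whole testis, fewer cells of a type and less RNA per cell cannot be told apart.

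Hepatocytes secrete most of the protein of blood plasma. Albumin (Alb) carries fatty acids and hormones and holds the osmotic pressure of plasma, transthyretin (Ttr) carries thyroid hormone and the retinol-binding protein, and apolipoprotein A1 (Apoa1) is the main protein of high density lipoprotein. Fga, Fgb and Fgg encode the 3 chains of fibrinogen, which thrombin turns into the fibrin of a clot. Serpina1 encodes alpha-1-antitrypsin, an inhibitor of neutrophil elastase, Ambp a precursor that is cut into alpha-1-microglobulin and bikunin, Hrg the histidine-rich glycoprotein, and Azgp1 the zinc-alpha-2-glycoprotein. In liver these genes are driven by factors such as HNF1, HNF4, FOXA and C/EBP acting on short promoters. The testis is not their main source, and the blood-testis barrier keeps much plasma protein out of the seminiferous tubules.

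RefSeq promoter windows (build GRCr8, 250 bases before the gene's start and 50 after it) were found for 8 of the 10 genes, in 9 windows. The windows of Alb, Fga and Fgb are shown because Fga and Fgb are the pair of these genes that varied most closely together across arrays, Alb is the gene that varied most, and their windows share motif matches. Each is written 5' to 3' on the strand of the gene, with capitals marking every match, on either strand, of GTTAAT, part of the HNF1 site, and of TTNNGCAA, part of the C/EBP site.
Alb, chr14:17906930-17907229, minus strand: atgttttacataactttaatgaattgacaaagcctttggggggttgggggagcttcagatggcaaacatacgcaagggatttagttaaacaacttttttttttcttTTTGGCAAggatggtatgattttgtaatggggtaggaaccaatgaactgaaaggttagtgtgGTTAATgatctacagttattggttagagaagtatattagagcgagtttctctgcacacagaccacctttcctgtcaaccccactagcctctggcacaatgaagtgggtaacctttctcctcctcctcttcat
Fga, chr2:170671919-170672218, plus strand: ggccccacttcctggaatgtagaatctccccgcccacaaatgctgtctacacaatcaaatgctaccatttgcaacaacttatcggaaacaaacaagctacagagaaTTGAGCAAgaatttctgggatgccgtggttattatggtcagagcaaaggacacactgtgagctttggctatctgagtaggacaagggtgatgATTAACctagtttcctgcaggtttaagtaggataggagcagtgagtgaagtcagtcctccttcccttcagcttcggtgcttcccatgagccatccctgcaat
Fgb, chr2:170700826-170701125, minus strand: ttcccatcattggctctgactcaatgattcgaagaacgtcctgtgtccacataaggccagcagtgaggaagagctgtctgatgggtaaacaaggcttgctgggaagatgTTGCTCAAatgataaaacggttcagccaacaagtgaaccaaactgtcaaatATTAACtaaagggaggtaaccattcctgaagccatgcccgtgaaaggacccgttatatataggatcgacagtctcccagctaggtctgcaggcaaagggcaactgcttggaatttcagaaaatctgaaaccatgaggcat
GTTAAT was in 4 of the 9 windows, those of Alb, Fgb and both windows of Fga, and in 7.45% of all 33469 windows of the table. Both Fga windows, which begin at positions 170671919 and 170671937, overlap and hold the same sites. By gene the matches are thus those of Alb, Fga and Fgb, among 8 genes with a window. Its matches began 82 bases before the start of Alb, 52 before the start of Fga in the window shown and 90 before the start of Fgb. TTNNGCAA was in the same 4 windows and in 10.6% of all windows, 144 bases before the start in both Alb and Fga and 141 bases before it in Fgb. TGTTTGC, a core of the FOXA site, was in the windows of Alb and Ambp and in 4.88% of all. TATAAA was found in the Fgg window and in 14.2% of all, and CAAAGTCCA, an HNF4 sequence, in none of the 9 and in 0.391% of all. The searches covered both strands, GTTAAT and TTNNGCAA do not overlap in the windows shown, and a match describes letters of the sequence without showing that a factor binds there.

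All values below are quantile-normalized scores. The deposited scores are on a log-like scale of unknown base, so a difference is stated in score units, never as a fold, and the score of a probe set cannot be set against that of another as an amount of RNA. On the 28 arrays the spermatid markers, genes of the most numerous testis cells, had a list mean of 3.66 to 3.91, and it was 3.87 in each of P2500 replicates 2 to 4. Quantile normalization gives each rank a fixed score, which limits how far genes of the top ranks can vary. Prm1 had 4.66 on every array, and for Odf1 the median of the 28 arrays, 4.52, was also the highest score. The same limit holds for the count of spermatid markers given below. The actin gap, the 3' minus the 5' score of the beta-actin control and thus a measure of RNA quality, was above 1.4 in 5 of the 28 arrays, which were replicates 2 and 6 of Control, 4 of M500, 5 of M2000 and 5 of P2500. Animal numbers fell into an earlier series and a later one, the later being Control replicates 5 to 7 and T1800 replicates 3 to 5.

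Outside P2500, Alb was the plasma protein transcript that differed most between animals. In Control its score ran from 0.132 to 1.65 with a median of 1.15, and its mean was 1.04 ± 0.588 (SD, n = 6). In M2000 the 5 scores were 0.921, 1.42, 1.46, 1.83 and 2.29, with a mean of 1.58 ± 0.509 (n = 5). In P500 the 4 scores were 0.0157, 0.0382, 0.0464 and 0.347, with a mean of 0.112 ± 0.157 (n = 4). M2000 thus lay wholly above P500, while Control ran across the range between them and overlapped both.

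In M500 the 3 Alb scores were 0.051, 0.525 and 1.62, with a mean of 0.731 ± 0.804 (n = 3). In T500 they were 0.176, 0.198, 0.227 and 1.66, with a mean of 0.566 ± 0.731 (n = 4). In T1800 they were 0.00419, 0.253, 0.616 and 0.714, with a mean of 0.397 ± 0.328 (n = 4). A single array of T500, replicate 4, stood with the high Control and M2000 arrays, and the other 3 stood with P500. The arrays of P2500 that were set with the 28 had 0.0616 (replicate 1) and -0.124 (replicate 5), the latter the lowest Alb score of all.

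Ordered by mean, the groups outside P2500 ran M2000, Control, M500, T500, T1800 and P500 for Alb, and each neighbour in that order overlapped the next. The standard deviation of Alb over the 28 arrays was 0.708, and no other of the 31042 probe sets had a larger one, the median being 0.0553. Its second probe set had 0.525, with 0.0226% of probe sets above it, and followed the first with r = 0.975 over the 28 arrays. Of the variance of Alb over the 28 arrays, 55.1% lay between groups, against a median of 20.8% over all probe sets. P2500 counted as a group there, with only its replicates 1 and 5 (Alb 0.0616 and -0.124). The P2500 arrays of high Alb had been set apart, so this share depends on that choice. The share without P2500 was not tested. Alb scored above the most dilute hybridisation control, bioB, in 11 of the 28 arrays, and the other 9 genes in 0 of 28, so the variation of those genes was measured under that control.

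**Figure D1:**
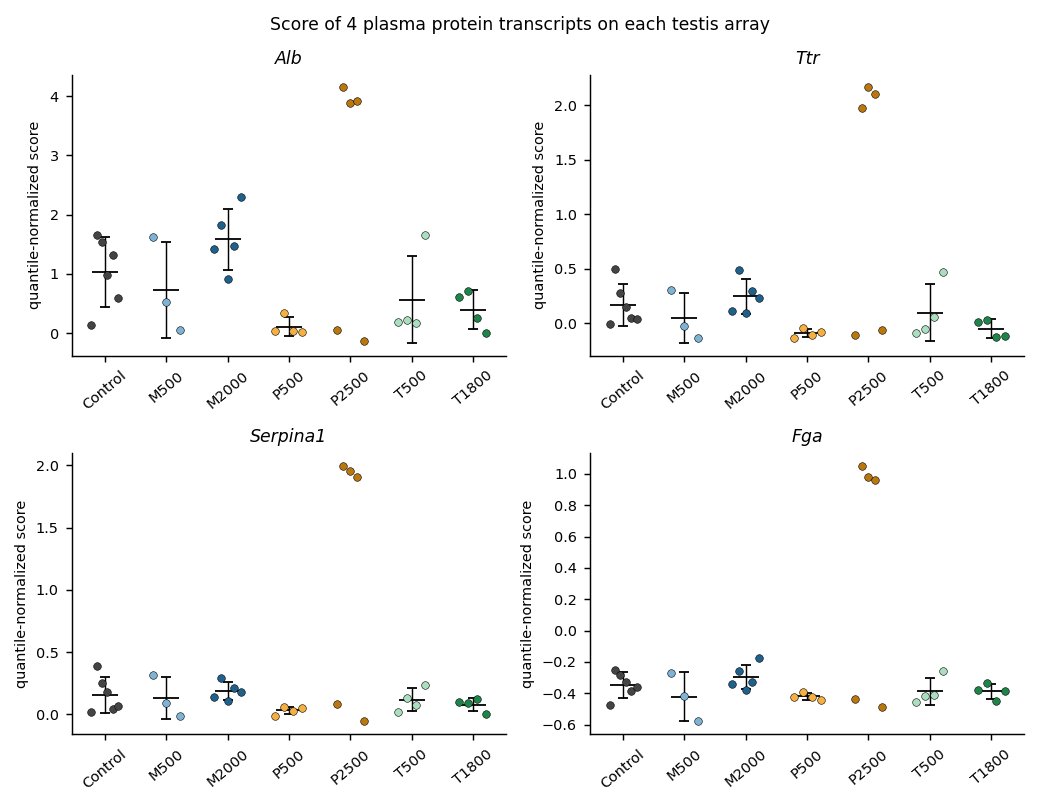
Quantile-normalized score (vertical axis, score units, a scale for each gene) of Alb, Ttr, Serpina1 and Fga on each of the 31 arrays, 1 point per animal, with the mean and SD drawn for every group but P2500. P2500 replicates 2 to 4 stand above all other arrays in each panel, with Alb at 3.89 to 4.15, while M2000 (Alb 0.921 to 2.29) lies above P500 (0.0157 to 0.347).

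Ttr varied over a narrower range. Its scores in Control ran from -0.00832 to 0.5, with a median of 0.0997 and a mean of 0.168 ± 0.191 (n = 6). In M2000 they were 0.0993, 0.117, 0.232, 0.297 and 0.486, and in P500 they were -0.133, -0.104, -0.0804 and -0.0444. Every P500 array was therefore below every Control and every M2000 array in Ttr, in a comparison with Control that called 0% of all probe sets.
In M500 the Ttr scores were -0.132, -0.0286 and 0.306, in T500 -0.0844, -0.0536, 0.0563 and 0.474, and in T1800 -0.128, -0.118, 0.0151 and 0.0344. The highest array of T500 was again replicate 4, and the highest of M500 was replicate 1, as for Alb. P2500 replicates 1 and 5 had -0.103 and -0.0571. The standard deviation of Ttr over the 28 arrays was 0.196, with 3.34% of probe sets above it.

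Serpina1, the protease inhibitor of the set, had 0.0156 to 0.387 in Control with a median of 0.122 and a mean of 0.158 ± 0.144 (n = 6). Its scores were 0.11, 0.138, 0.176, 0.214 and 0.293 in M2000, and -0.0101, 0.0269, 0.0489 and 0.0582 in P500. As for Alb, M2000 lay wholly above P500 and Control overlapped both. Means were 0.131 ± 0.169 (n = 3) in M500, 0.116 ± 0.0925 (n = 4) in T500 and 0.0778 ± 0.0515 (n = 4) in T1800.

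Of the fibrinogen chains, Fga had -0.477 to -0.252 in Control, with a median of -0.344 and a mean of -0.348 ± 0.0808 (n = 6). It had -0.376, -0.341, -0.327, -0.258 and -0.178 in M2000, and -0.441, -0.425, -0.421 and -0.39 in P500. P500 again lay below all of M2000 and within the range of Control. Fgb had means of -0.106 ± 0.129 (n = 6) in Control, -0.0475 ± 0.0643 (n = 5) in M2000 and -0.148 ± 0.0215 (n = 4) in P500. Fgg had 0.313 ± 0.0923, 0.362 ± 0.0431 and 0.25 ± 0.101 in these groups. For both chains the group ranges overlapped those of Control.

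The remaining 4 genes varied less over the 28 arrays than those above, by the probe set of highest mean. Of the 4, only Azgp1 had a standard deviation under the median of all probe sets, 0.0553. Hrg, which binds heparin, heme and plasminogen, had group means from 0.217 ± 0.0195 (T1800, n = 4) to 0.319 ± 0.0581 (M2000, n = 5), with 0.284 ± 0.0898 in Control. Ambp ran from 0.146 ± 0.0147 (T1800) to 0.223 ± 0.088 (Control), Apoa1 from -0.138 ± 0.136 (M500, n = 3) to -0.0601 ± 0.0378 (M2000), and Azgp1 from -0.194 ± 0.0268 (M500) to -0.111 ± 0.0377 (M2000). Standard deviations over the 28 arrays were 0.0693 for Hrg, 0.0649 for Ambp, 0.0652 for Apoa1 and 0.0491 for Azgp1, and 10 of the 14 probe sets of the 10 genes exceeded the median of all probe sets.

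No probe set of these genes passed the threshold of 0.05 in any of 8 comparisons between groups outside P2500 by limma, with p-values adjusted by Benjamini-Hochberg over all 31042 probe sets. The comparisons themselves called almost nothing: 0.00322% of probe sets for M500 against Control, 0.00644% for T1800 against Control and 0% for M2000, P500 and T500 against Control and for the 3 pairs of compounds at 500 ppm. The F test over the 6 groups called 0.00322%, and 0 of the 14. At an unadjusted p under 0.05, 4 of the 14 were past the threshold for P500, 1 for M500, 1 for T1800 and 0 for M2000 and T500 against Control, and 3 in the F test. The shares of all probe sets at that level were 3.45%, 9%, 6.12%, 1.64%, 7.76% and 5.58%.

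For P500 against Control, 13 of the 14 probe sets had a lower mean and 1 a higher one, with a median difference of -0.06, against 0.000708 over all probe sets, of which 49% were lower. The 14 probe sets are not independent, as Alb, Fga and Fgb have several each and the genes varied together across arrays. Counts of signs here and in the comparisons below are therefore a description. Alb differed by -0.926 (SE 0.333, 95% interval -1.62 to -0.236, adjusted p = 1). Ttr differed by -0.258 (SE 0.107, adjusted p = 1). All 4 P500 arrays lay under the Control mean in both genes, and neither difference passed the threshold. For M2000 against Control the signs were mostly the other way, with 3 probe sets lower and 11 higher and a median of 0.0444, and Alb differed by 0.547 (SE 0.313, 95% interval -0.101 to 1.19, adjusted p = 1). Azgp1 had the smallest p of the genes there, with a difference of 0.0461 (SE 0.0259, adjusted p = 1).

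Without the 4 arrays of the fit whose actin gap exceeded 1.4, both probe sets of Alb were called lower in P500 than in Control, 2 of the 14, with differences of -1.08 (SE 0.303, adjusted p = 0.0452) and -0.878 (SE 0.244, adjusted p = 0.0441). The same fit called 4.94% of all probe sets, 895 higher and 637 lower, where the fit of all arrays called none. The limit removed Control replicates 2 and 6 and no P500 array. The mean actin gap of the remaining arrays was 1.14 in P500 (0.85 to 1.33) and 0.859 in Control (0.833 to 0.878). Over all arrays of these groups it was 1.14 and 1.12. Among the arrays kept, RNA quality thus moved with the groups, and its part in the difference of this smaller fit was not tested. With the actin gap as a covariate in the fit of all arrays, Alb differed by -0.921 (adjusted p = 0.468).

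With triadimefon, 10 probe sets were lower and 4 higher in T500 than in Control, with a median of -0.0233, and 11 were lower and 3 higher in T1800, with a median of -0.0505. Ambp had the smallest p in both, with -0.0519 in T500 and -0.0767 in T1800 (SE 0.0353, adjusted p = 0.735 in T1800), and Alb differed by -0.641 in T1800 (SE 0.333, adjusted p = 0.735). In the later animal series Alb was 0.981, 1.32 and 0.599 in Control and 0.714, 0.253 and 0.00419 in T1800. In the earlier series it was 0.132, 1.65 and 1.55 in Control and 0.616 in the single array of T1800. The groups overlapped in both series.

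At 500 ppm the 3 compounds could be compared at a matched dose in 3 pairs. The compounds have the triazole ring in common, while a nitrile is found only in myclobutanil, a dioxolane ring only in propiconazole and a ketone only in triadimefon. Of the 14 probe sets, 10 were higher in M500 than in P500, 9 higher in M500 than in T500 and 12 lower in P500 than in T500, and none was called, with 2, 1 and 0 at an unadjusted p under 0.05, a level that 7.38%, 6.63% and 5.38% of all probe sets passed. Alb differed by 0.619 (95% interval -0.197 to 1.44) between M500 and P500, by 0.165 (-0.651 to 0.982) between M500 and T500 and by -0.454 (-1.21 to 0.302) between P500 and T500, with adjusted p of 0.771, 0.889 and 0.857. These intervals are wide enough to hold differences in either direction. The probe set of smallest p was 1 of Fgb each time, with 0.0999, 0.0738 and -0.0534, but the Fgb probe set of highest mean, used elsewhere here, differed by -0.00736, -0.0506 and -0.0432, so the signs disagreed for M500 against P500 and against T500.

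Across the 28 arrays the plasma protein transcripts varied together. Of the 45 pairs, r ran from 0.115 to 0.906 with a median of 0.546, and none was negative. The closest pair was Fga and Fgb, whose promoter windows are shown above, with r = 0.906 and rho = 0.918, and Ttr and Serpina1 had r = 0.891 and rho = 0.817. Hrg and Ambp reached r = 0.854 and rho = 0.811. All 3 had a permutation p of 1e-05, the smallest that 100000 resamples can give, and 4.1e-05 after Benjamini-Hochberg over the 45 pairs. Without the 2 arrays farthest from the median of the first gene, r was 0.9, 0.839 and 0.824. Fgg was the fibrinogen chain that kept apart, with r = 0.553 with Fga and 0.423 with Fgb.

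Alb correlated most with Fga (r = 0.893, rho = 0.881) and Ttr (r = 0.883, rho = 0.891), then with Serpina1 (r = 0.815, rho = 0.864), Fgg (0.778, 0.793) and Fgb (0.73, 0.756). It correlated less with Ambp (0.527, 0.604), Apoa1 (0.515, 0.59), Hrg (0.403, 0.457) and Azgp1 (0.326, 0.309). Without the 2 arrays farthest from the median of Alb, r was 0.851 with Fga, 0.902 with Ttr, 0.368 with Hrg and 0.173 with Azgp1. The permutation p was 0.034 for Hrg and 0.0904 for Azgp1, or 0.045 and 0.107 after Benjamini-Hochberg over the 45 pairs. Of the 9 genes, 7 had r above 0.5 with Alb, against 71 of 14207 other genes (0.5%). In all, 34 of the 45 pairs passed 0.05 after that adjustment, and 29 of these 34 also passed without the 2 arrays farthest from the median of the gene on the x axis, where 3 others passed. Without P2500 replicates 1 and 5, 39 pairs passed, and r of Alb with Ambp was 0.713.

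**Figure D2:**
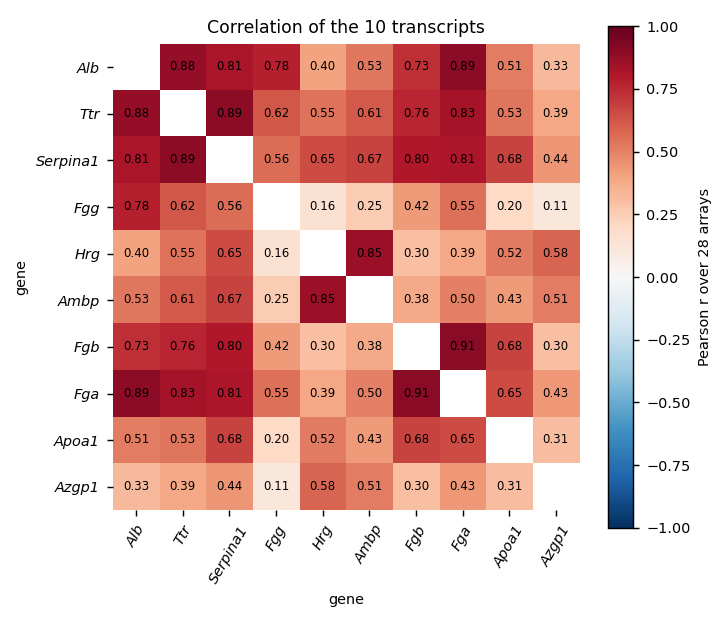
Pearson r (colour and number) of each pair of the 10 transcripts over the 28 arrays other than P2500 replicates 2 to 4, 1 probe set per gene. Alb, Ttr, Serpina1, Fga and Fgb form the block of high values (0.73 to 0.91), and Hrg with Ambp (0.85) a second pair, while Fgg and Azgp1 have the lowest value (0.11).

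With each array set against its group mean, 30 of the 45 pairs passed, all positive. In the earlier animal series 32 of 45 passed (22 arrays), and Alb had r = 0.93 with Fga and 0.894 with Ttr. In the later series none passed (6 arrays), and r with Alb there was 0.904 for Fgg, 0.825 for Ttr and 0.427 for Fga, but -0.362 for Apoa1, -0.348 for Fgb, -0.32 for Azgp1 and -0.0307 for Hrg. The positive sign of these 4 genes with Alb was thus not seen in the later series.

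**Figure D3:**
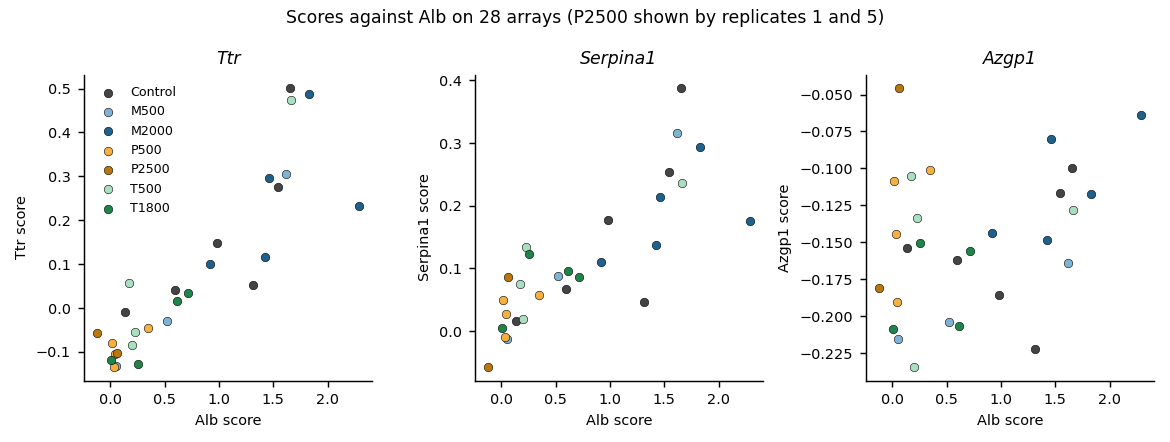
Scores of Ttr, Serpina1 and Azgp1 (vertical axes, score units) against the score of Alb (horizontal axis) on the 28 arrays, 1 point per animal coloured by group. Ttr (r = 0.883) and Serpina1 (r = 0.815) climb with Alb, with P500 at the lower left and M2000 mostly at the upper right, whereas Azgp1 (r = 0.326) scatters.

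The score of a few genes varied with RNA quality. The actin gap had r = -0.605 with Apoa1 (rho = -0.362, permutation p = 0.00073, 0.0073 after adjustment over the 10 genes) and r = -0.545 with Fgb (rho = -0.33, p = 0.00254, adjusted 0.0127), and the other 8 did not pass. Without the 2 arrays farthest from the median, r was -0.534 and -0.452 and neither passed after adjustment (permutation p = 0.00535 and 0.0223, adjusted 0.0535 and 0.111). In the earlier series r was -0.588 and -0.542. The later series held 6 arrays, of which only Control replicate 6 had a large gap (1.63, the others 0.835 to 0.928). There r was -0.872 for Apoa1 and -0.781 for Fgb (permutation p = 0.132 and 0.119). Alb (r = 0.74), Fgg (0.827) and Ttr (0.278) had a positive r there, the other genes a negative one, and none passed after adjustment. Over all arrays of the correlations Alb had r = -0.115 with the actin gap (rho = -0.135, p = 0.564, 0.589 after adjustment).

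In P2500 replicates 2 to 4 the order of the scores was nearly the same from array to array. Alb was highest with 4.15, 3.89 and 3.91 (replicates 2, 3 and 4). Ttr had 1.97, 2.16 and 2.1 and Serpina1 2.00, 1.96 and 1.91, and these were the only genes to change places, Serpina1 coming second in replicate 2 and Ttr in replicates 3 and 4. Below them stood Fgg (1.72, 1.59 and 1.53), Hrg (1.49, 1.47 and 1.46), Ambp (1.4, 1.41 and 1.39), Fgb (1.14, 1.1 and 1.15), Fga (1.05, 0.979 and 0.96), Apoa1 (0.94, 0.886 and 0.863) and Azgp1 (0.653, 0.665 and 0.641). So 8 of the 10 kept 1 rank in all 3 arrays. The spread of a gene over the 3 arrays ran from 0.0168 score units in Ambp to 0.257 in Alb.

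The order is one of probe scores, which depend on the probes as well as on the RNA. Set against the Control mean, which takes out a constant offset of each probe set, the mean differences of the 3 arrays were 2.95 for Alb, 1.91 for Ttr, 1.8 for Serpina1, 1.34 for Fga, 1.3 for Fgg, 1.24 for Fgb, 1.19 for Hrg, 1.17 for Ambp, 0.999 for Apoa1 and 0.81 for Azgp1. On this measure Fga moved from the eighth place to the fourth or the fifth, and 5 of 10 genes kept 1 rank in all 3 arrays.

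The same order can be set beside the slope of each gene on Alb over the 28 arrays, where P2500 replicates 2 to 4 took no part. The slopes were 0.244 for Ttr, 0.125 for Serpina1, 0.11 for Fgb, 0.109 for Fga, 0.0903 for Fgg, 0.0483 for Ambp, 0.0474 for Apoa1, 0.0394 for Hrg and 0.0226 for Azgp1, in score units per unit of Alb. After Alb, Ttr and Serpina1 led and Azgp1 came last in both. The middle of the orders differed. With Alb as rank 1, Hrg had rank 5 by score in each of the 3 arrays and rank 9 by slope. Fgb had ranks 7 and 4, Fga 8 and 5, Fgg 4 and 6, Ambp 6 and 7, and Apoa1 9 and 8. A score keeps the offset of its probe set, while a slope does not. By mean difference from Control, the ranks were 7 for Hrg, 6 for Fgb, 4 for Fga, 5 for Fgg, 8 for Ambp and 9 for Apoa1. These were nearer to the slope ranks for Hrg, Fgb, Fga and Fgg, and as near for Ambp and Apoa1. Of the 14 probe sets, 12 scored above all 28 other arrays in each of the 3. The exceptions were a pair of Fgb probe sets, which had -0.332, -0.346 and -0.376, and -0.514, -0.463 and -0.487, inside the ranges of the 28 arrays (-0.397 to -0.262, and -0.555 to -0.368). Probe sets that carry the same Fgb symbol thus disagreed, and the third had 1.14, 1.1 and 1.15. The distance from the lowest of the 3 to the highest of the 28 was 1.6 in Alb, 1.52 in Serpina1, 1.47 in Ttr and 0.686 in Azgp1.

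**Figure D4:**
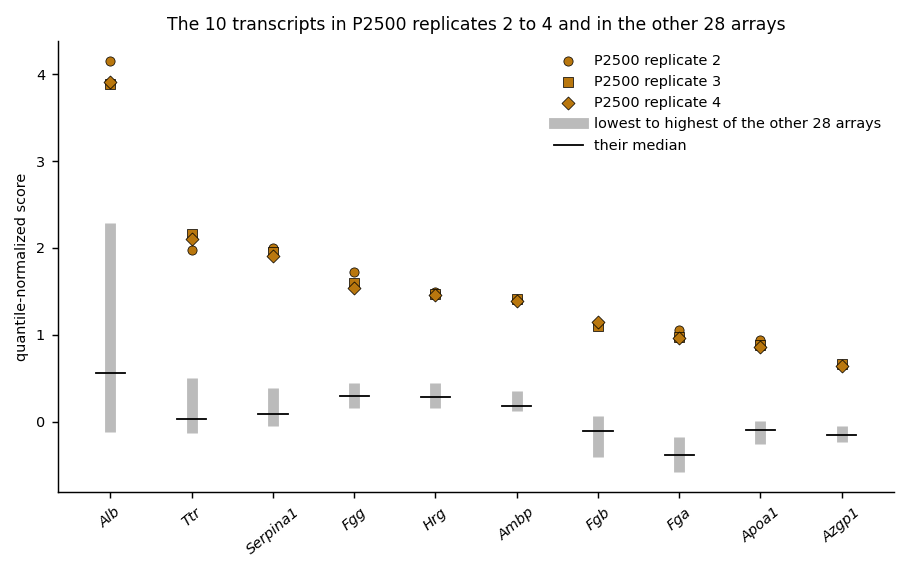
Quantile-normalized score (vertical axis, score units) of the 10 transcripts in P2500 replicates 2, 3 and 4 (symbols), with the range (grey bar) and median (line) of the other 28 arrays. Scores fall from Alb (3.89 to 4.15) to Azgp1 (0.641 to 0.665), the 3 arrays lie close together, and the grey bar of Alb (-0.124 to 2.29) is the longest.

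The genes whose pattern was most like Alb over the 28 arrays were Gc, the vitamin D-binding protein (r = 0.952), Rup2 (0.949), Cyp3a2 (0.934) and Cyp2c11 (0.926), steroid-hydroxylating enzymes of rat liver, and Serpina3c (0.925). Most like the mean of the other 9 genes were Rup2 (0.948), Apoc3, an apolipoprotein (0.937), Serpina3c (0.935), Gc (0.925) and Fabp1, the liver fatty acid-binding protein (0.919). Gc ran from -0.329 to 0.35 on the 28 arrays and was 2.1, 1.88 and 1.86 in P2500 replicates 2 to 4. Cyp3a2 ran from -0.432 to 0.22 and was 1.91, 1.87 and 1.76. All 7 genes stood above the 28 arrays in each of the 3.

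Other plasma proteins and enzymes of hepatocytes were counted for both patterns. In 6 lists with 94 measured genes, 80 (85.1%) scored above all 28 arrays in each of the 3, against 184 of 14113 genes outside these lists (1.3%), and 32 (34%) had r above 0.5 with Alb, against 39 (0.276%). By list, the genes above all 28 arrays were 12 of 14 lipoprotein genes (Apoh 1.62, 1.53 and 1.48), 12 of 14 carriers (Ahsg 1.58, 1.49 and 1.45), 12 of 13 coagulation genes (Serpinc1, antithrombin, 1.22, 1.14 and 1.07), 11 of 13 inhibitors (Pzp 1.37, 1.21 and 1.16), 13 of 16 complement genes (C3 1.89, 1.71 and 1.65) and 20 of 24 hepatocyte enzymes (Arg1, arginase, 0.633, 0.475 and 0.393). Those with r above 0.5 were 6, 6, 3, 3, 5 and 9 genes. Of the 71 genes with r above 0.5 among all but the 10, 53 (74.6%) were above all 28 arrays in the 3, which is 20.1% of the 264 such genes. These lists were chosen with earlier results known, so they are a description.

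Of 14 regulators of hepatocyte genes, 1 scored above all 28 arrays in each of the 3, Creb3l3 (0.295, 0.327 and 0.323 against at most 0.271), and 0 had r above 0.5 with Alb. Over all genes but the 10 these shares were 1.86% and 0.5%, so few or none would be met in a list of this size. Hnf4a was -0.032, 0.00929 and 0.0278, inside its range of -0.0962 to 0.0507, and Cebpa was 0.284, 0.412 and 0.432, inside 0.212 to 0.583. No regulator exceeded 0.583 on the 28 arrays, where bioB was at least 0.711. The regulators were thus measured under that control, which limits what their counts can show. Of 7 genes for cytokines and signalling of the acute phase response, 0 stood apart and 0 had r above 0.5. In that response the liver makes more fibrinogen and Serpina1.

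Markers of other cells were counted beside the plasma protein transcripts, and 0 had r above 0.5 with Alb in any of these lists. Of all genes but the 10, 0.5% had r above 0.5 and 1.86% stood above all 28 arrays in the 3. At such shares lists this small would mostly hold none, so a count of 0 is near the share over all genes. Above all 28 arrays in the 3 were 0 of 10 Sertoli, 0 of 12 spermatid, 0 of 4 spermatocyte and spermatogonia, 0 of 5 erythrocyte, 0 of 6 adipocyte and 0 of 6 kidney markers. There were 2 of 7 Leydig markers (Star and Cyp17a1, with the list mean at 0.801 to 1.19 on the 28 arrays and 1.17 to 1.2 on the 3), 1 of 3 of epididymis (Adam7), 1 of 9 of macrophages (Cd14) and 1 of 8 of pancreas (Ctrb1). The erythrocyte list had means of 0.169 to 0.557 on the 28 arrays and 0.328 to 0.408 on the 3. The hepatocyte enzyme list, in contrast, had means of -0.092 to 0.0434 on the 28 and 0.614 to 0.686 on the 3, and by group -0.0508 ± 0.0334 in Control (n = 6), -0.00952 ± 0.0332 in M2000 (n = 5) and -0.069 ± 0.00579 in P500 (n = 4). The part that RNA of another tissue has in the scores of the plasma protein transcripts was not tested.

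**Figure D5:**
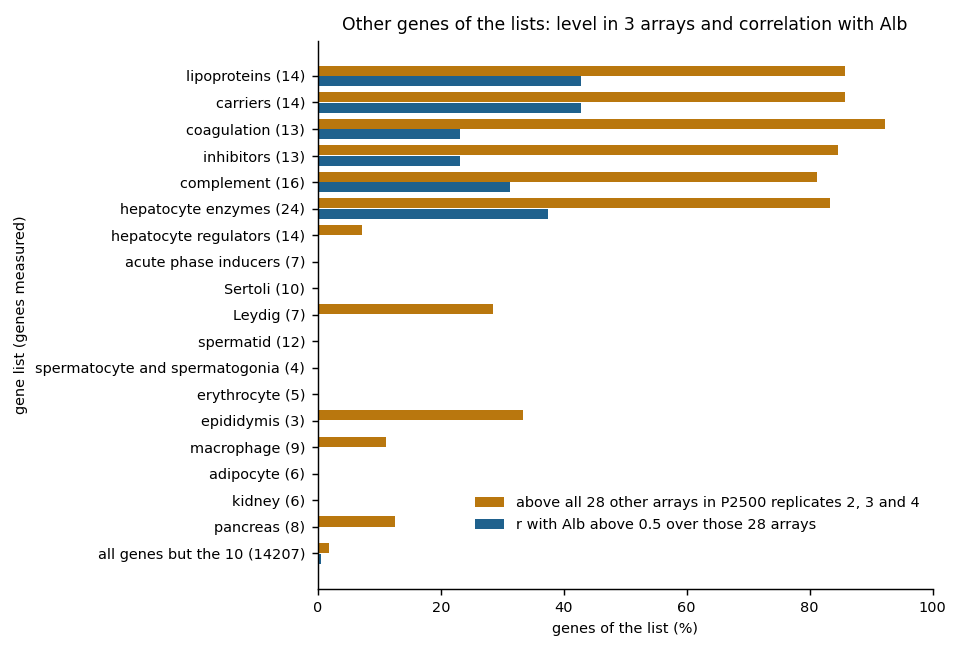
Share of the genes of each list (horizontal axis, percent, number measured in brackets) that scored above all 28 other arrays in P2500 replicates 2, 3 and 4 (orange), and that had r above 0.5 with Alb over those 28 arrays (blue). The 6 lists of plasma proteins and hepatocyte enzymes reach 81.3% to 92.3% and 23.1% to 42.9%, against 1.86% and 0.5% of all genes but the 10, the list genes included, and no marker list below them has a blue bar.

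Of the 18 lists, none had a gene called in any of the 8 comparisons between groups outside P2500 or in the F test. By the rule that named up to 3 genes of a list, those of smallest F test p included Cyp3a2 (adjusted p = 0.746) with means of -0.225 in Control, -0.0454 in M2000 and -0.404 in P500, the same order of these groups as in Alb. The other hepatocyte enzymes named by the rule did not have that order. Gnmt had -0.0261, 0.00738 and 0.0273 in Control, M2000 and P500, and Pck1 had -0.29, -0.297 and -0.364. Of the plasma protein genes named by the rule, Apoe, Apoh, Gc, Serpinc1, Serpinf1, Itih2, Masp1 and Crp had the order of Alb in these groups. Pon1, Hp, Cp, F12, Klkb1, Itih1 and C4bpa did not. C1qa, a complement subunit made by macrophages (adjusted p = 0.293), had 0.0789 in Control and 0.244 in T1800, and Hbb, a haemoglobin chain (adjusted p = 0.562), had 1.13 in Control and 1.84 in T500.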

How the data were processed

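The deposited table holds a score per probe set for 31 testis arrays. The steps by which the authors summarised, corrected and normalized it, and the base of its log-like scale, were not stated in the labels. The arrays were quantile normalized in limma 3.58.1 (R 4.3.3), and 31042 probe sets were tested after removal of 57 controls. Gene names came from the platform annotation, which can be old, and none was taken from a probe set with several symbols. One limma fit (lmFit, eBayes) with a mean per group held 26 arrays of 6 groups and 20 residual degrees of freedom. P2500 was left out of this fit because its values chose the genes. Benjamini-Hochberg adjustment ran over all probe sets, with a threshold of 0.05, and every adjusted p of a difference is limma's.

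Correlations used 28 arrays, the probe set of highest mean per gene and 100000 resamples in 2-sided permutation tests (scipy 1.17.1), exact for the later series. The named genes were the 10 genes, for each comparison their probe set of smallest p, up to 3 genes per list by smallest F test p, and the 5 genes most like Alb or like the mean of the other 9. List members given as examples, among them Apoh, Ahsg, Serpinc1, Pzp, C3, Arg1, Hnf4a and Cebpa, were chosen after their values were seen. The genes and the 18 lists were chosen with earlier results of these data known. Fits were tested on simulated data. Alternatives were the scores as deposited, all 31 arrays or only the groups compared, array weights, a filter on dim probe sets, the actin gap, the animal series, the replicate number as a block and leaving out each array. The number of arrays limits the precision.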

Additional observations from a re-analysis of the deposited data

Results flagged for a closer look

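Among 84 sets of values, a probe set in a group of 4 to 10 arrays, 5 held an array far from the others of its group, where chance gives about 1 in 20. Alb in P500 had its highest score, 0.347, in replicate 2, the others lying between 0.0157 and 0.0464. Alb in T500 had 1.66 in replicate 4, the others lying between 0.176 and 0.227. The second Alb probe set had 1.28 in the same array, against 0.0656 to 0.17 in the others. Ambp in T500 was also highest in replicate 4, with 0.265 against 0.134 to 0.143. The second probe set of Fga had its lowest score of M2000, -0.442, in replicate 3, the others lying between -0.361 and -0.332.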

How the results depend on the processing

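The count of called plasma protein probe sets stayed at 0 in 177 of 178 alternatives over the 9 tests, and leaving out each array gave 0 to 0 in all 9. The exception was P500 against Control without the arrays of actin gap above 1.4, with 2. Named differences kept their direction and their side of the threshold in 138 of 139 alternatives, Alb in P500 being the other. Replicate numbers did not pair the animals: same-numbered arrays had a median correlation of 0.0144 over 49 pairs, and 4 of 26 arrays correlated best with their own number. With the replicate block 0 probe sets of these genes were called in any comparison, and Alb differed by -0.966 between P500 and Control (adjusted p = 0.514).

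The count of all probe sets called depended more on the setting, from 0 to 150 for M500, 0 to 4 for M2000, 0 to 1532 for P500, 0 to 44 for T500 and 0 to 233 for T1800 against Control. Pairs of genes past the threshold were 34, and 30 to 39 elsewhere except in the later animal series, with 0 of 45. There r of Alb turned to -0.362 with Apoa1, -0.348 with Fgb, -0.0307 with Hrg and -0.32 with Azgp1, over 6 arrays. The count of genes that correlated with the actin gap fell from 2 to 0 with group means removed, without the arrays of gap above 1.4, with Spearman rho, in the later series and without the 2 farthest arrays. The cause was not tested. Ranking by difference from Control left 5 genes at 1 rank in place of 8. Genes other than Alb lay under the bioB control on all 28 arrays, which limits their precision.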
